A study of Arabidopsis thaliana with 9 samples.

Results

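The genes described here were 48 histone genes of Arabidopsis thaliana, chosen by gene identifier out of the 28117 genes of the deposited expression table. They comprised 13 H2A genes (HTA), 11 H2B genes (HTB), 13 H3 genes (HTR), 8 H4 genes and 3 linker H1 genes. By type, 27 were replication-dependent (4 canonical H2A, 10 H2B, 5 H3.1 and 8 H4 genes), 14 were variants, 3 were linkers, and 4 (HTA4, HTR6, HTR11 and HTR14) were assigned to neither type. These types were assigned by subclass and were not tested in these data. The data were mRNA levels in 9 libraries from whole seedlings, 3 for each of 3 genotypes: arid2/3/4, homozygous for mutations in ARID2, ARID3 and ARID4, which encode proteins with an ARID DNA-binding domain; epcr1/2, homozygous for mutations in EPCR1 and EPCR2, which encode Enhancer of Polycomb-related proteins; and wild type (WT). Seedlings of all genotypes were 10 days old and were grown on MS plates at 22 °C with 16 h of light and 8 h of darkness. The labels give no allele, accession or number of plants, so how far each mutant is a full loss of its genes is not known from them. The series title places the study in work on the PEAT protein complexes, which it links to histone deacetylation and the silencing of heterochromatin.

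Histones package DNA into nucleosomes, each built on a core of H2A, H2B, H3 and H4, with linker H1 bound where DNA enters and leaves. Replication-dependent genes are transcribed mainly in S phase and supply new chromatin. Several variants instead mark particular places: H3.3 transcribed genes, H2A.Z gene starts, H2A.W plant heterochromatin and CENH3 centromeres. H2A.X is a further H2A variant. In plants the mRNAs of replication-dependent histones are polyadenylated, so libraries of mRNA can hold them.

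Sequences upstream of these genes are shown because an octamer and a hexamer-type element are known from plant histone promoters. Both strands of the 250 bases before each annotated transcript start were searched in TAIR10.1 with RefSeq's annotation, in which 48 of 48 genes were found. The octamer CGCGGATC was in the windows of 10 of 48 histone genes (20.8%) and of 37 of 27443 protein-coding genes (0.135%). The element CCACGTCA was in 7 of 48 (14.6%) and in 342 of 27443 (1.25%). Its carriers included 4 H2B genes (HTB2, HTB3, HTB5 and HTB11), and no H2B window held the octamer. TTTCCCGC, an E2F-type motif, and CATCCAACG, a nonamer, were in 0 of 48 windows, against 0.619% and 0.149% of all protein-coding genes. Only these exact letters were searched, so other forms of an element, such as other nonamers, are not covered by the counts. These matches describe letters in a window and do not show binding. The windows below belong to a canonical H2A gene with a pair of octamers, HTA10 (chr1:18926561-18926810, plus strand); to H3.1 genes, HTR2 with a pair of octamers (chr1:2972335-2972584, minus strand) and HTR9 with both elements (chr5:3270958-3271207, minus strand); and to HTB5 (chr2:15736477-15736726, plus strand), which had the lowest log2 fold change of the 46 tested histone genes in arid2/3/4. They run 5′ to 3′ towards the gene, in TAIR10.1, and capitals mark the octamer or the CCACGTCA element on either strand.
HTA10: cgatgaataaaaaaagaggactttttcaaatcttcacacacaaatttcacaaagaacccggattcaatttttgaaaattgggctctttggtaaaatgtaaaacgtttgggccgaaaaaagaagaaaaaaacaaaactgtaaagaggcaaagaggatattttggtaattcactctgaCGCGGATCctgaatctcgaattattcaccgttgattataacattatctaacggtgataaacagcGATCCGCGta
HTR2: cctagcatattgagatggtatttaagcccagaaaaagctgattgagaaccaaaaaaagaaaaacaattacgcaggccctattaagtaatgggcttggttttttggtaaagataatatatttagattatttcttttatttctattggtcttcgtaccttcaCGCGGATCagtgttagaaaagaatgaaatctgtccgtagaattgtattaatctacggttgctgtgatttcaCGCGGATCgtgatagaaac
HTR9: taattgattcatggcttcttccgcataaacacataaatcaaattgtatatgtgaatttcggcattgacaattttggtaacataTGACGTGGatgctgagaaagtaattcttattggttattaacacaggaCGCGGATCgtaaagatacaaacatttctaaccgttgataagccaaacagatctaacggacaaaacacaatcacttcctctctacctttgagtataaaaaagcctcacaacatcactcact
HTB5: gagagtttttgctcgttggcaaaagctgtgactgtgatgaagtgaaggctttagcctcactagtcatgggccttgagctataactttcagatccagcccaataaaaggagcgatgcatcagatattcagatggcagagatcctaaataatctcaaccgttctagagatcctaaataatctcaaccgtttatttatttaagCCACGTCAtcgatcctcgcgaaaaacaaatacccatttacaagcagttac

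Facts of the libraries bear on every result below. The header of the table names no unit, and the values were read as FPKM. A rough estimate from the smallest values put the depth of libraries 1 and 2 at 17 to 25 M fragments, and that of library 3 at 48 to 58 M. Libraries 1 and 2 of a genotype were nearly alike across genes (Pearson r of 0.994 to 0.995), and may share plants, while library 3 stood apart from both (r of 0.835 to 0.883). The shift of library 3 was shared by the genotypes and touched the histone genes themselves: the summed level of the 4 canonical H2A genes in library 3 was 0.374, 0.502 and 0.458 times the mean of libraries 1 and 2 in arid2/3/4, epcr1/2 and WT. Results are therefore given without and with the replicate number as a block. Of the mutated genes, ARID2 averaged 2.11 ± 0.0428 FPKM in arid2/3/4 and 21.7 ± 1.36 FPKM in WT, and EPCR1 averaged 0.646 ± 0.385 FPKM in epcr1/2 and 12.9 ± 3.11 FPKM in WT (SD, n = 3 each), while EPCR2 was not lower, at 10.9 ± 1.01 FPKM in epcr1/2 and 9.05 ± 2.48 FPKM in WT. ARID3 and ARID4 also fell in arid2/3/4 (log2 fold changes of -0.83 and -1.48), and ARID4 in epcr1/2 (-0.48).

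Histone transcripts were abundant in these seedlings. In WT, 19 of the 48 genes averaged 100 FPKM or more, led by the H3.3 gene HTR5 at 362 ± 55.7 FPKM and the H3.1 gene HTR1 at 288 ± 12.1 FPKM (SD, n = 3 each). The 48 genes summed to 4149, 3807 and 2945 FPKM in arid2/3/4 libraries 1, 2 and 3, to 3876, 3724 and 3371 FPKM in epcr1/2, and to 5097, 5229 and 4462 FPKM in WT. Each mutant library lay below every WT library. As a share of the summed FPKM of all genes the histones made up 0.456% ± 0.080 in arid2/3/4, 0.434% ± 0.059 in epcr1/2 and 0.557% ± 0.062 in WT (SD, n = 3 each), and on this share arid2/3/4 overlapped WT and epcr1/2 did not. In whole seedlings, fewer cells of a type and less RNA per cell cannot be told apart. HTR10, the H3 of sperm cells, was listed at 0 in all 9 libraries. HTB8, a seed H2B, stayed under 1 FPKM throughout, so 46 of the 48 genes passed the filter of 0.5 FPKM in at least 3 libraries.

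**Figure D1:**
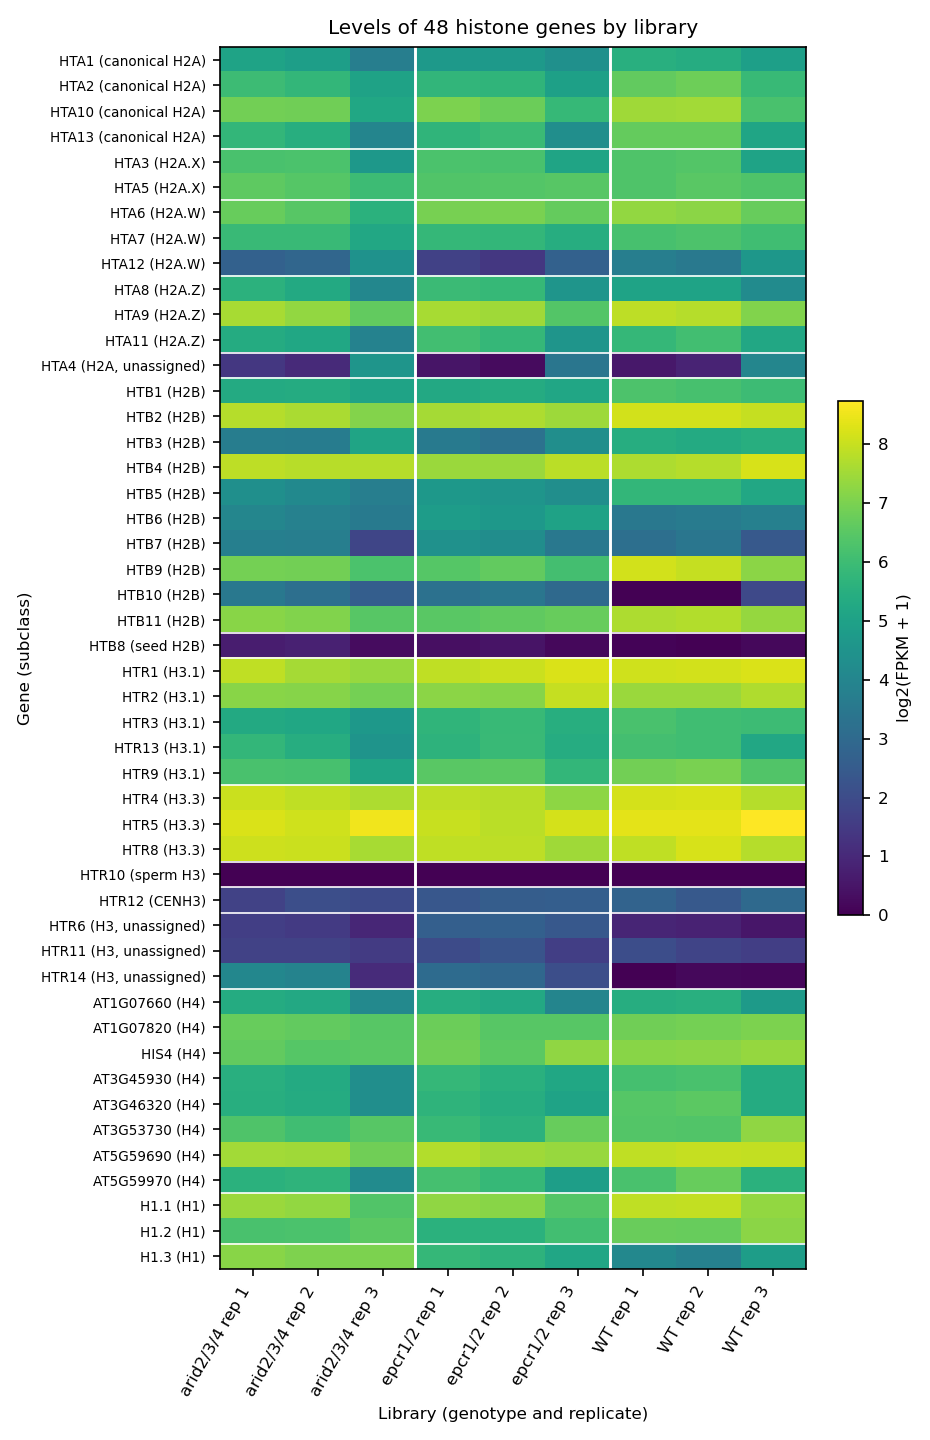
Levels of the 48 histone genes, as log2(FPKM + 1) by colour, with 1 row per gene grouped by subclass and 1 column per library. HTR10 is at 0 in every library, HTR14 is near 0 in the WT libraries, and HTA4 is brighter in each library numbered 3.

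In arid2/3/4, most histone genes had lower means than in WT. Of 46 tested genes, 38 had a negative log2 fold change, and the median was -0.56, beside -0.05 over all 21168 tested genes. At an adjusted p under 0.05 (limma), 9 histone genes changed: HTB1, HTB5, HTB9, HTR3, CENH3 (HTR12) and the H4 gene HIS4 fell, and HTB10, HTR14 and the linker H1.3 rose. That is 3 higher and 6 lower of 46, against 8.78% of all tested genes called higher and 12.0% called lower, 20.8% in either direction, so the count of calls lay near the background. With the replicate block, 32 were called, 5 higher and 27 lower, against 19.4% and 25.7% of all tested genes (45.1% in either direction). Under the block the share called lower thus lay above the background, and the share called higher below it. Libraries did not overlap those of WT for 4 genes that were higher and 17 that were lower, against 16.6% and 20.7% of all tested genes (37.2% in either direction). Quantile normalization gave 14 calls, 3 higher and 11 lower, against 22.2% of all tested genes.

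In epcr1/2, 37 of 46 histone genes had a negative log2 fold change from WT, with a median of -0.40 beside -0.12 over all tested genes. By limma, 12 changed: HTA12, HTB1, HTB3, HTB5, HTB9, HTB11 and the linker H1.2 fell, and HTB6, HTB10, HTR6, HTR14 and H1.3 rose. Those 5 higher and 7 lower calls compare with 10.8% and 17.8% of all tested genes (28.5% in either direction), near the background. With the replicate block, 29 were called, 7 higher and 22 lower, against 19.3% and 31.9% of all tested genes (51.2% in either direction). Non-overlapping libraries were found for 6 genes that were higher and 16 that were lower, against 18.4% and 28.1% of all tested genes (46.6% in either direction). Both comparisons use the same 3 WT libraries, so their folds are not independent of each other.

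As libraries 1 and 2 were nearly alike, they were also averaged as 1 sample, with a batch term for library 3. In that fit 9 histone genes were called in arid2/3/4 (1 higher and 8 lower) and 11 in epcr1/2 (2 higher and 9 lower), against 9.50% and 22.8% of all tested genes in either direction. Of the calls made without the block, 6 of 9 in arid2/3/4 and 8 of 12 in epcr1/2 also passed there. Of the calls made only with the block, 3 of 23 in arid2/3/4 (HTA2, HTA13 and the H4 gene AT5G59970) and 3 of 17 in epcr1/2 (HTA2, HTA13 and H1.1) did; every other histone call given below as made only with the block was lost with this averaging.

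**Figure D2:**
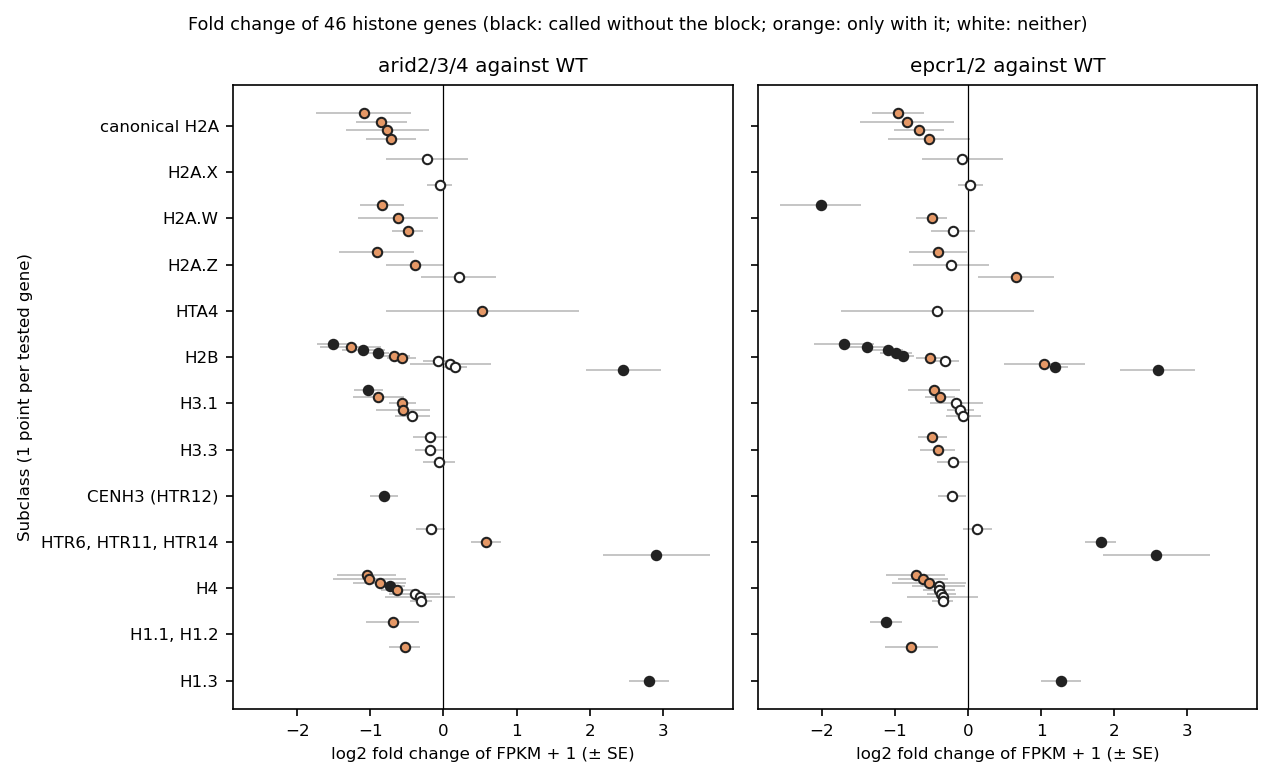
Log2 fold change of FPKM + 1 with its SE for each of the 46 tested histone genes, by subclass, in arid2/3/4 (left) and epcr1/2 (right) against WT, n = 3 libraries per genotype. Filled black points passed the test without the replicate block, orange points only with it, and white points neither; the points of canonical H2A and H4 lie left of 0 in both panels, and HTR14 and H1.3 lie right of it.

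The canonical H2A genes (HTA1, HTA2, HTA10 and HTA13), which supply the H2A of newly replicated chromatin, were lower in each mutant library than in the WT library of the same number. HTA10, the highest of them, had 118, 114 and 35.9 FPKM in arid2/3/4, 129, 109 and 56.8 FPKM in epcr1/2 and 178, 185 and 74.1 FPKM in WT. HTA13 had 53.6, 43.3 and 14.9 FPKM in arid2/3/4, 51.3, 61.1 and 19.2 FPKM in epcr1/2 and 101, 102 and 34.3 FPKM in WT. Values are in the order of libraries 1, 2 and 3 here and throughout. Library 3 was the lowest of each genotype for both genes, and the genotypes overlapped. HTA1 and HTA2 overlapped WT in arid2/3/4 and not in epcr1/2. Without the block none of the 4 passed the test (limma, 1 of 4 at an unadjusted p under 0.05 in either mutant), and with the block 4 of 4 passed in both mutants (limma adjusted p of 0.00117 to 0.024 in arid2/3/4 and of 0.00059 to 0.0268 in epcr1/2). Over all tested genes 25.7% and 31.9% were called lower with the block. With libraries 1 and 2 averaged, HTA2 and HTA13 passed in both mutants, while HTA1 and HTA10 did not (limma adjusted p = 0.111 and 0.0767 in arid2/3/4, and 0.144 and 0.152 in epcr1/2). Their log2 fold changes ran from -1.09 to -0.72 in arid2/3/4 and from -0.96 to -0.53 in epcr1/2. The summed level of the 4 genes in arid2/3/4 was 0.632, 0.547 and 0.481 times that of the WT library of the same number, and in epcr1/2 it was 0.614, 0.563 and 0.642 times.

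The 10 tested H2B genes had log2 fold changes from -1.51 to 2.46 in arid2/3/4 and from -1.69 to 2.60 in epcr1/2. This was the widest range of any subclass, but its upper end in both mutants was HTB10, whose values are uncertain (below). In arid2/3/4 HTB10 was the only H2B gene called higher, with or without the block. HTB5 had 19.3, 16.9 and 12.4 FPKM in arid2/3/4, 24.2, 22.3 and 18.8 FPKM in epcr1/2 and 53.6, 53.6 and 37.1 FPKM in WT. HTB9 had 120, 116 and 76.0 FPKM in arid2/3/4, 85.7, 98.9 and 68.8 FPKM in epcr1/2 and 279, 250 and 149 FPKM in WT. Neither gene's mutant libraries overlapped its WT libraries. HTB5 fell in both, with log2 fold changes of -1.513 ± 0.215 in arid2/3/4 and -1.097 ± 0.215 in epcr1/2 (± SE; by limma, adjusted p = 0.00292 and 0.00741), and HTB9 fell with -1.095 ± 0.291 in arid2/3/4 and -1.376 ± 0.291 in epcr1/2 (limma adjusted p = 0.0326 and 0.00989). The fall of HTB9 in arid2/3/4 lost its call in 9 of 20 alternatives, among them without any 1 of the 3 arid2/3/4 libraries, WT library 1 or 2, or epcr1/2 library 1 or 2.

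HTB1 differed by a like amount in both mutants. It had 39.8, 40.5 and 32.7 FPKM in arid2/3/4, 37.4, 40.1 and 35.2 FPKM in epcr1/2 and 77.2, 72.0 and 62.4 FPKM in WT. Every mutant library lay below every WT library, with log2 fold changes of -0.89 ± 0.14 in both mutants (± SE; by limma, adjusted p = 0.00493 and 0.00338). HTB3 had 12.1, 11.6 and 33.7 FPKM in arid2/3/4, 11.1, 8.77 and 19.0 FPKM in epcr1/2 and 43.0, 39.8 and 43.6 FPKM in WT. Its mutant libraries did not overlap WT, and its library 3 was the highest within each mutant. The log2 fold change of -1.69 in epcr1/2 passed the test (limma adjusted p = 0.0181) and that of -1.27 in arid2/3/4 passed only with the block (limma adjusted p = 0.0103, and 0.0652 without it). HTB11 had 144, 134 and 87.3 FPKM in arid2/3/4, 88.8, 97.6 and 104 FPKM in epcr1/2 and 201, 213 and 162 FPKM in WT, and its log2 fold changes were -0.68 and -0.98 (limma adjusted p = 0.0633 and 0.0126), the first of which passed with the block (0.0226). Its mutant libraries did not overlap WT. HTB2, the most abundant H2B gene in WT, had 216, 198 and 139 FPKM in arid2/3/4, 186, 202 and 177 FPKM in epcr1/2 and 285, 279 and 248 FPKM in WT. It did not overlap WT in either mutant and was called in both only with the block (log2 fold changes of -0.57 and -0.52), not with libraries 1 and 2 averaged (limma adjusted p = 0.121 and 0.142). The call of HTB3 in epcr1/2 was lost without library 1 or 2 of epcr1/2 or of WT, and that of HTB11 without epcr1/2 library 1 or WT library 2, with median centring and with libraries 1 and 2 averaged (limma adjusted p = 0.0675).

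Other H2B genes were not called lower in either mutant. HTB4, next to HTB2 in WT level, averaged 223 ± 7.46 FPKM in arid2/3/4, 190 ± 31.5 FPKM in epcr1/2 and 238 ± 50.2 FPKM in WT (SD, n = 3 each) and did not pass in either fit. HTB6 had 15.1, 13.5 and 10.8 FPKM in arid2/3/4, 27.7, 24.1 and 31.8 FPKM in epcr1/2 and 10.3, 11.5 and 13.1 FPKM in WT. It rose in epcr1/2 by a log2 fold change of 1.19 ± 0.17 (± SE; by limma, adjusted p = 0.00208), with no overlap, whereas in arid2/3/4 the log2 fold change was 0.15 (limma adjusted p = 0.586) and the libraries overlapped WT. HTB7 had 12.8, 12.4 and 2.51 FPKM in arid2/3/4, 20.4, 18.4 and 10.3 FPKM in epcr1/2 and 8.11, 9.68 and 4.49 FPKM in WT. Its epcr1/2 libraries lay above the WT libraries, and it was called higher there only with the block (log2 fold change of 1.05; limma adjusted p = 0.199 without the block, 0.0143 with it and 0.0859 with libraries 1 and 2 averaged).

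HTB10 and HTA12 have to be read together. HTB10 (chr5:576655-577176, minus strand, TAIR10.1) lies inside the span of HTA12 (chr5:575225-577216, plus strand), an H2A.W gene. Of the 50-base stretches of HTB10's exons, 100% also lie in the exons of HTA12, on the opposite strand. Whether the authors counted by strand is not given in the sources used here, so the values of this gene pair are uncertain. HTB10 had 10.2, 8.20 and 5.12 FPKM in arid2/3/4, 8.67, 9.90 and 6.98 FPKM in epcr1/2 and 0, 0 and 2.81 FPKM in WT. HTA12 had 5.57, 6.33 and 20.9 FPKM in arid2/3/4, 2.26, 1.69 and 5.59 FPKM in epcr1/2 and 12.3, 10.5 and 23.9 FPKM in WT. HTB10 was thus listed at 0 in WT libraries 1 and 2, while HTA12 was lowest in epcr1/2. The limma calls were a rise of HTB10 in both mutants (log2 fold changes of 2.46 and 2.60, adjusted p = 0.013 and 0.00742) and a fall of HTA12 in epcr1/2 (-2.01, adjusted p = 0.0277). With the block HTA12 was also called lower in arid2/3/4 (-0.62; limma adjusted p = 0.0259). With libraries 1 and 2 averaged HTB10 passed in neither mutant (limma adjusted p = 0.131 and 0.0843). Its call in arid2/3/4 was also lost without library 1 or 2 of arid2/3/4 or of WT, and that of HTA12 without epcr1/2 library 1 or 2 or WT library 1 or 3.

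The 5 H3.1 genes encode the H3 laid down at replication, and they were lower in arid2/3/4 than in WT in each same-numbered pair of libraries. HTR3 had 38.9, 36.2 and 24.2 FPKM in arid2/3/4, 51.5, 58.6 and 43.8 FPKM in epcr1/2 and 73.6, 65.7 and 62.2 FPKM in WT. The 3 genotypes did not overlap for this gene, which fell in arid2/3/4 by 1.02 ± 0.20 on the log2 scale (± SE; by limma, adjusted p = 0.0111); in epcr1/2 its log2 fold change was -0.39 (limma adjusted p = 0.198 without the block and 0.0438 with it). HTR1, the most abundant, had 236, 186 and 169 FPKM in arid2/3/4, 240, 265 and 302 FPKM in epcr1/2 and 278, 285 and 302 FPKM in WT. Its arid2/3/4 libraries lay below those of both other genotypes, which overlapped each other. With the block 4 of the 5 genes were called lower in arid2/3/4, HTR2 being the exception, and 2 (HTR3 and HTR9) in epcr1/2. Over all tested genes the shares were 25.7% and 31.9%, so the count in epcr1/2 lay near the background. The subclass median was -0.56 in arid2/3/4 and -0.16 in epcr1/2, and the summed level was 0.772, 0.675 and 0.534 times WT in arid2/3/4 libraries 1, 2 and 3 and 0.814, 0.867 and 1.005 times WT in epcr1/2.

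All 8 H4 genes, which encode the partner of H3 in the nucleosome, had negative log2 fold changes in both mutants, from -1.05 to -0.30 in arid2/3/4 and from -0.71 to -0.35 in epcr1/2. HIS4 (AT2G28740) had 98.1, 85.7 and 90.4 FPKM in arid2/3/4, 115, 92.2 and 154 FPKM in epcr1/2 and 145, 147 and 163 FPKM in WT. AT5G59690, the most abundant H4 gene, had 185, 180 and 113 FPKM in arid2/3/4, 210, 178 and 167 FPKM in epcr1/2 and 236, 248 and 242 FPKM in WT. HIS4 overlapped WT in epcr1/2 and not in arid2/3/4, and AT5G59690 overlapped WT in neither. HIS4 fell in arid2/3/4 (log2 fold change of -0.73 ± 0.20, ± SE; by limma, adjusted p = 0.0346), a call lost without library 1 or 2 of arid2/3/4, any 1 of the WT libraries, or epcr1/2 library 1, and with libraries 1 and 2 averaged (limma adjusted p = 0.0921). In epcr1/2 none of the 8 passed without the block (limma, 1 at an unadjusted p under 0.05), and with it 5 of 8 were called lower in arid2/3/4 and 3 of 8 in epcr1/2, against 25.7% and 31.9% of all tested genes; the count in epcr1/2 lay near that background. AT3G46320 had the lowest log2 fold change of the class in both mutants (-1.05 and -0.71) and shares 27.9% of its 50-base stretches with AT3G45930, so the split of reads between these 2 genes is uncertain. The same holds for AT1G07660 with AT1G07820 and for AT5G59690 with AT5G59970, which share 28.8% and 8.5% of the stretches of the first gene of each pair.

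**Figure D3:**
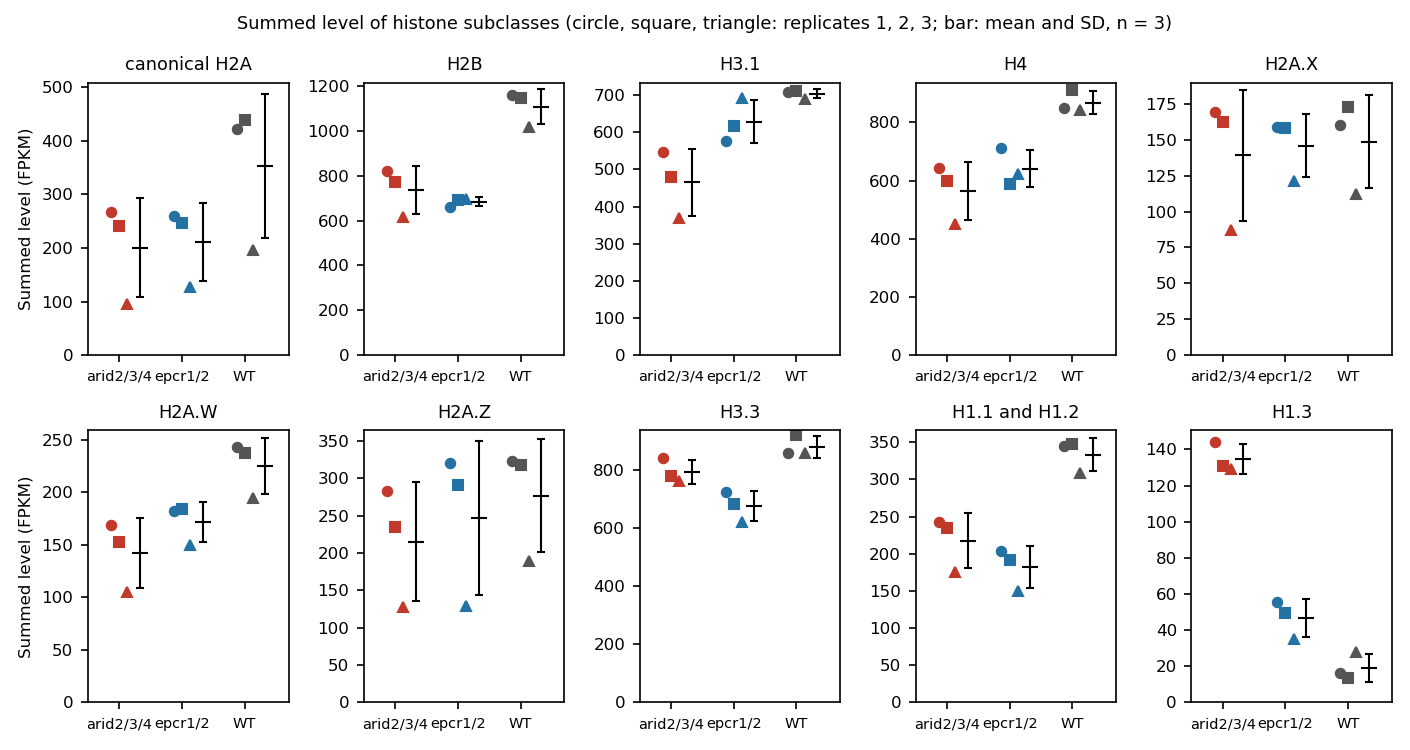
Summed FPKM of the genes of each histone subclass in every library (circles, squares and triangles for libraries 1, 2 and 3), with the mean and SD of 3 libraries as a bar. H2B and H4 lie below WT in both mutants, H3.1 lies below the other genotypes in arid2/3/4, and H1.3 is highest in arid2/3/4, at 129 to 144 FPKM against 13.5 to 27.9 FPKM in WT.

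Variants had medians nearer 0 than the replication-dependent genes in both mutants. Over the 27 replication-dependent genes the median log2 fold change was -0.72 in arid2/3/4 and -0.46 in epcr1/2. Under the block 19 and 15 were called lower, against 25.7% and 31.9% of all tested genes. Those called higher were 1 and 3, all of them H2B genes, against 19.4% and 19.3%. Without the block 5 were called lower in each mutant, against 12.0% and 17.8%. Then 1 and 2 were called higher, against 8.78% and 10.8%. The 5 lower calls in epcr1/2 lay near the background. Leaving out the H2B genes, the other 17 had medians of -0.73 and -0.40. Under the block 13 and 9 of these 17 were called lower and 0 higher. Over the 12 tested variants the median was -0.30 in arid2/3/4 and -0.23 in epcr1/2, with 6 and 5 called lower and 0 and 1 called higher under the block. Without it 1 variant was called lower in each mutant (CENH3 and HTA12). These medians are descriptions, and the difference between the types was not tested. Variants made up 39.8% ± 1.45 of the summed FPKM of both types in arid2/3/4, 36.4% ± 3.46 in epcr1/2 and 33.6% ± 0.47 in WT (SD, n = 3 each). The share was 38.9% to 41.5% in arid2/3/4 libraries, all above the 33.1% to 34.1% of WT libraries, while epcr1/2 library 3, at 32.4%, lay below WT.

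H3.3, which replaces H3 during transcription, is encoded by HTR4, HTR5 and HTR8. HTR5 had 306, 278 and 372 FPKM in arid2/3/4, 254, 230 and 289 FPKM in epcr1/2 and 332, 329 and 427 FPKM in WT. Only its epcr1/2 libraries failed to overlap WT, and its log2 fold change there was -0.49 ± 0.20 (± SE; by limma, adjusted p = 0.109 without the block and 0.0103 with it), against -0.19 ± 0.20 in arid2/3/4 (limma adjusted p = 0.567). HTR4 was likewise called lower only in epcr1/2 and only with the block, and HTR8 in neither mutant. As a share of H3.1 plus H3.3, H3.3 made up 60.5%, 61.9% and 67.4% in arid2/3/4, 55.7%, 52.6% and 47.3% in epcr1/2 and 54.8%, 56.5% and 55.5% in WT. The share was higher than in WT in 3 of 3 arid2/3/4 libraries and overlapped WT in epcr1/2.

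Among H2A variants, the H2A.X genes HTA3 and HTA5 passed the test in neither mutant, with or without the block. HTA5 had 95.1, 85.9 and 62.3 FPKM in arid2/3/4, 82.5, 84.4 and 87.4 FPKM in epcr1/2 and 80.4, 89.3 and 79.2 FPKM in WT, and its log2 differences were -0.05 ± 0.17 and 0.03 ± 0.17 (± SE). H2A.X made up a larger share of all H2A in the mutants, 19.8% ± 0.74 in arid2/3/4 and 19.2% ± 2.86 in epcr1/2 against 14.9% ± 0.95 in WT (SD, n = 3 each), with every mutant library above every WT library. HTA6, the main H2A.W gene, had 103, 87.2 and 47.0 FPKM in arid2/3/4, 124, 127 and 102 FPKM in epcr1/2 and 159, 150 and 104 FPKM in WT. It did not overlap WT in arid2/3/4, where it was called only with the block (log2 fold change of -0.84; limma adjusted p = 0.0891 without the block, 0.00752 with it and 0.0753 with libraries 1 and 2 averaged). HTA7, also H2A.W, was called lower in both mutants only with the block, with log2 fold changes of -0.49 and -0.50, and in neither with that averaging (limma adjusted p = 0.115 and 0.101).

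H2A.Z genes did not move one way. HTA9, the most abundant, had 194, 159 and 98.3 FPKM in arid2/3/4, 192, 178 and 84.4 FPKM in epcr1/2 and 235, 217 and 134 FPKM in WT, and HTA11 had 40.1, 35.9 and 13.6 FPKM in arid2/3/4, 67.3, 55.8 and 22.4 FPKM in epcr1/2 and 55.4, 68.0 and 37.1 FPKM in WT. HTA8 had 48.3, 38.7 and 15.7 FPKM in arid2/3/4, 60.7, 56.6 and 22.3 FPKM in epcr1/2 and 32.7, 32.9 and 17.6 FPKM in WT. All 3 overlapped WT in both mutants, with library 3 lowest in each genotype, and none passed without the block (limma, 0 of 3 at an unadjusted p under 0.05 in either mutant). Under the block HTA9 was lower in both mutants (log2 fold changes of -0.39 and -0.41), HTA11 was lower in arid2/3/4 (-0.91), and HTA8 was higher in epcr1/2 (0.65). CENH3 (HTR12) had 2.30, 3.24 and 2.93 FPKM in arid2/3/4, 4.19, 4.91 and 5.18 FPKM in epcr1/2 and 5.94, 4.38 and 6.99 FPKM in WT. It fell in arid2/3/4 without overlap (log2 fold change of -0.81 ± 0.19, ± SE; by limma, adjusted p = 0.0192, lost without library 1 of arid2/3/4 or of WT and when only arid2/3/4 and WT were fitted).

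Linker histones split by kind. H1.3, a linker known to be induced by drought and low light, had 144, 131 and 129 FPKM in arid2/3/4, 55.6, 49.3 and 35.0 FPKM in epcr1/2 and 16.1, 13.5 and 27.9 FPKM in WT. The 3 genotypes did not overlap. H1.3 rose in both mutants, by a log2 fold change of 2.81 ± 0.28 in arid2/3/4 (± SE; by limma, adjusted p = 0.000657, held in 20 of 20 alternatives) and of 1.28 ± 0.28 in epcr1/2 (limma adjusted p = 0.0107). The call in epcr1/2 was lost with libraries 1 and 2 averaged (log2 fold change of 1.04; limma adjusted p = 0.111). H1.1, the most abundant linker in WT, had 170, 158 and 82.4 FPKM in arid2/3/4, 157, 145 and 82.6 FPKM in epcr1/2 and 240, 245 and 161 FPKM in WT. H1.1 was called lower in both mutants only with the block (log2 fold changes of -0.70 and -0.77; limma adjusted p = 0.00507 and 0.00236 with it, and 0.212 and 0.148 without it), and overlapped WT in arid2/3/4 and not in epcr1/2. H1.2 had 73.5, 75.9 and 92.9 FPKM in arid2/3/4, 47.2, 46.5 and 67.6 FPKM in epcr1/2 and 105, 103 and 147 FPKM in WT. H1.2 did not overlap WT in either mutant. It fell in epcr1/2 (log2 fold change of -1.12 ± 0.22, ± SE; by limma, adjusted p = 0.00659) and was called in arid2/3/4 only with the block (-0.53; limma adjusted p = 0.118 without the block and 0.00546 with it). The 3 linkers together summed to 352 ± 43.0 FPKM in arid2/3/4, 228 ± 38.5 FPKM in epcr1/2 and 353 ± 14.8 FPKM in WT, and H1.3 made up 38.5% ± 3.42, 20.3% ± 1.28 and 5.51% ± 2.46 of that sum (SD, n = 3 each). H1.1 and H1.2 overlap other annotated genes on the opposite strand, as do HTB9, HTA13, HTA3, HTA9 and HTA4, while HTR3 overlaps one on its own strand, so their values may hold reads of those genes.

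The unassigned H3 genes HTR14 and HTR6 were under 1 FPKM in each WT library and above every WT library in both mutants. HTR14 had 15.7, 14.2 and 1.09 FPKM in arid2/3/4, 7.30, 6.56 and 3.25 FPKM in epcr1/2 and 0, 0.141 and 0.102 FPKM in WT. It did not overlap WT, although arid2/3/4 library 3 lay far below libraries 1 and 2. HTR14 rose by log2 fold changes of 2.91 ± 0.73 and 2.58 ± 0.73 on the FPKM + 1 scale (± SE; by limma, adjusted p = 0.0266 and 0.0323), which understates changes of genes this low. Its calls were lost without library 1 or 2 of the mutant tested and without any 1 of the WT libraries, and with libraries 1 and 2 averaged (limma adjusted p = 0.105 and 0.0782), and that in arid2/3/4 also when only arid2/3/4 and WT were fitted. HTR6 had 2.06, 1.78 and 0.899 FPKM in arid2/3/4, 5.26, 5.34 and 4.26 FPKM in epcr1/2 and 0.874, 0.776 and 0.449 FPKM in WT. Its libraries did not overlap between any pair of genotypes, and it rose in epcr1/2 (log2 fold change of 1.81 ± 0.21, ± SE; by limma, adjusted p = 0.000778), while in arid2/3/4 the 0.58 passed only with the block (by limma, adjusted p = 0.00962 there and 0.0859 otherwise). HTR11 stayed between 1.87 and 3.77 FPKM in all 9 libraries and passed in neither fit. HTA4 had 1.68, 1.07 and 22.8 FPKM in arid2/3/4, 0.416, 0.206 and 9.72 FPKM in epcr1/2 and 0.490, 0.843 and 15.0 FPKM in WT. Library 3 was thus 16.6, 31.3 and 22.5 times the mean of libraries 1 and 2 in arid2/3/4, epcr1/2 and WT. With the block HTA4 was called higher in arid2/3/4 (0.53; limma adjusted p = 0.0341), and this direction turned round without arid2/3/4 library 3 (-0.59) or WT library 1 (-0.09).

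**Figure D4:**
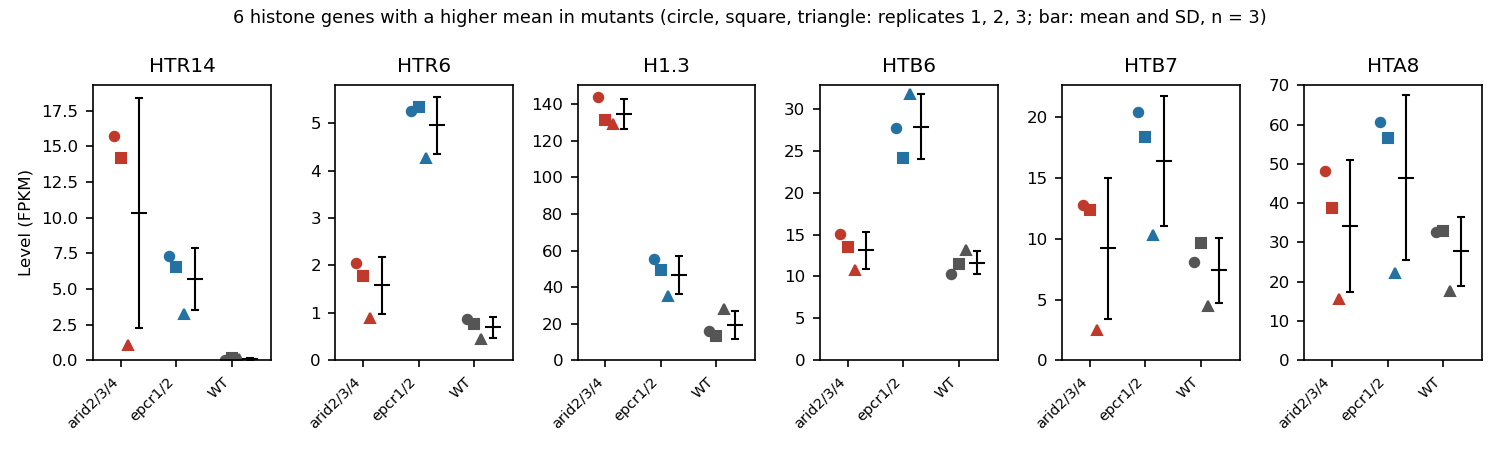
FPKM of 6 histone genes with a higher mean in mutants, in every library (circles, squares and triangles for libraries 1, 2 and 3), with the mean and SD of 3 libraries as a bar. H1.3 is highest in arid2/3/4, HTR6 and HTB6 are highest in epcr1/2, and HTR14, HTR6, H1.3, HTB7 and HTA8 have their lowest value of each mutant in library 3.

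HTB8, a seed H2B below the filter, had 0.641, 0.755 and 0.216 FPKM in arid2/3/4, 0.297, 0.362 and 0.126 FPKM in epcr1/2 and 0.0563, 0 and 0.126 FPKM in WT. Its arid2/3/4 libraries lay above the WT libraries, and epcr1/2 library 3 equalled the highest WT library to the printed digits. Seed genes moved in the same direction: of 7 seed markers, 5 rose in arid2/3/4 and 6 in epcr1/2 by limma. Over all tested genes 8.78% and 10.8% were called higher. With libraries 1 and 2 averaged, 1 of these 5 calls and 3 of these 6 passed. The summed level of the 7 markers was 924, 847 and 41.9 FPKM in arid2/3/4, so library 3 lay far below libraries 1 and 2. It was 406, 348 and 175 FPKM in epcr1/2 and 1.41 to 1.89 FPKM in WT. EM1, a late embryogenesis protein, had log2 fold changes of 5.05 and 4.66. Their part in the levels of HTB8 and HTR14 was not tested. Markers of pollen and sperm cells stayed low, with a summed level of 0.627 to 1.01 FPKM in arid2/3/4, 0.533 to 0.993 FPKM in epcr1/2 and 1.33 to 1.94 FPKM in WT, and DUO1 was at 0 in 7 of 9 libraries; HTR10 was at 0 throughout.

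Directly compared, arid2/3/4 and epcr1/2 differed in 3 of 46 histone genes, against 10.5% of all tested genes (5.71% higher and 4.77% lower in arid2/3/4). H1.3 was higher in arid2/3/4 (log2 fold change of 1.53 ± 0.28, ± SE; by limma, adjusted p = 0.0125), and HTB6 and HTR6 were lower (-1.03 ± 0.17 and -1.23 ± 0.21; limma adjusted p = 0.01 and 0.0103). With only 3 calls, the gap to the background without the block is not read as a result. Libraries of the mutants did not overlap for 2 genes higher and 5 lower in arid2/3/4, against 17.7% and 12.6% of all tested genes (30.3% in either direction). With the block 12 were called, 4 higher (H1.2, H1.3, HTA12 and HTA4) and 8 lower (HTA6, HTA11, HTB5, HTB6, HTB7, HTR3, HTR6 and CENH3), against 16.8% and 11.7% of all tested genes (28.5% in either direction). HTA4 turned round without arid2/3/4 library 3 (-0.16). All 5 H3.1 genes had negative and all 3 H3.3 genes positive differences between the mutants, with medians of -0.43 and 0.23 beside 0.09 over all tested genes; of these 8 genes HTR3 passed, with the block (limma adjusted p = 0.0142). When libraries 1 and 2 were averaged as 1 sample, limma called 0 of 46 histone genes between the mutants, with 14 at an unadjusted p under 0.05, against 0.0425% of all tested genes called. The call of H1.3 was also lost without arid2/3/4 library 1.

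Genes that work with histones were taken from lists of chaperones, DNA replication, G1/S regulators and mitosis. Of 18 histone chaperones, 3 fell in arid2/3/4 and 5 in epcr1/2 by limma, and none rose; with the block 5 and 11 were lower and 2 and 3 higher. Over all tested genes 12.0% and 17.8% were called lower, and 25.7% and 31.9% with the block, so the count in arid2/3/4 lay near the background. ASF1B, a chaperone of H3 and H4, fell in both (log2 fold changes of -1.29 ± 0.21 and -0.67 ± 0.21, ± SE; by limma, adjusted p = 0.0054 and 0.0487), as did UBN1, a subunit of the HIRA complex that deposits H3.3 (-0.52 and -0.51). FAS1, the large subunit of CAF-1, which deposits H3.1, fell in arid2/3/4 (-0.53; limma adjusted p = 0.0396). With libraries 1 and 2 averaged, 1 of these 3 falls in arid2/3/4 passed, that of ASF1B. FAS1 and UBN1 did not (limma adjusted p = 0.132 and 0.127). In epcr1/2 the other falls were ASF1A (-1.05), the H3 chaperone NASP (-0.88) and NAP1;3, a chaperone of H2A and H2B (-0.62). Of the 5 falls in epcr1/2, 3 passed with libraries 1 and 2 averaged. ASF1A had 9.15, 11.2 and 11.9 FPKM in arid2/3/4, 3.95, 3.62 and 5.79 FPKM in epcr1/2 and 9.16, 8.91 and 12.7 FPKM in WT, so that only epcr1/2 stood apart from WT.

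Most mitotic genes were lower in arid2/3/4 than in both other genotypes. Of 9 mitotic genes, 7 fell and 1 rose in arid2/3/4, none fell and 1 rose in epcr1/2 (2 at an unadjusted p under 0.05), and 7 were lower in arid2/3/4 than in epcr1/2 (limma). Over all tested genes, 12.0% fell and 8.78% rose in arid2/3/4, and 17.8% fell and 10.8% rose in epcr1/2. Between the mutants, 4.77% were lower in arid2/3/4. CYCB1;2, a mitotic cyclin, had 5.62, 4.94 and 4.89 FPKM in arid2/3/4, 14.1, 14.1 and 9.38 FPKM in epcr1/2 and 16.8, 16.3 and 13.7 FPKM in WT. It fell in arid2/3/4 (log2 fold change of -1.43; limma adjusted p = 0.00181), together with KNOLLE of the cell plate (-1.27), CDKB1;2 (-1.18) and the kinase AUR1 (-1.11), while the cyclin CYCB1;1 rose in both mutants (0.90 and 1.24). Of 16 DNA replication genes, 3 fell (MCM6, MCM7 and ORC1B, with -0.56, -0.67 and -0.60) and 1 rose (TSO2, a ribonucleotide reductase subunit, 1.5) in arid2/3/4, where 7 were lower with the block, against 25.7% of all tested genes. In epcr1/2 none fell, with or without the block, and 3 rose (TSO2, 1.06; the sliding clamp PCNA1, 0.50; MCM4, 0.48). In the list of 6 G1/S regulators, 0 were called in arid2/3/4 (limma, 2 at an unadjusted p under 0.05). In epcr1/2 only CDC25 of that list was called, as higher (1.24). Its place among G1/S regulators is that of the list and was not tested. With the block 1 mitotic gene, KNOLLE, was lower in epcr1/2 (-0.54; limma adjusted p = 0.0117) and 2 were higher, CYCB1;1 and the kinase CDKB1;1 (0.38; limma adjusted p = 0.037). The shares of all tested genes in epcr1/2 with the block were 31.9% lower and 19.3% higher. The calls of KNOLLE and CDKB1;1 in epcr1/2 were lost with libraries 1 and 2 averaged, while that of CYCB1;1 passed. With libraries 1 and 2 averaged, the 7 mitotic falls in arid2/3/4 all passed, the difference between the mutants passed for 0 of 9 mitotic genes, and of the 16 DNA replication genes 0 were called in arid2/3/4 and 1, MCM5, in epcr1/2 (higher). That fit called 9.50% of all tested genes in arid2/3/4, 22.8% in epcr1/2 and 0.0425% between the mutants. The part of dividing cells in the histone levels was not tested.

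**Figure D5:**
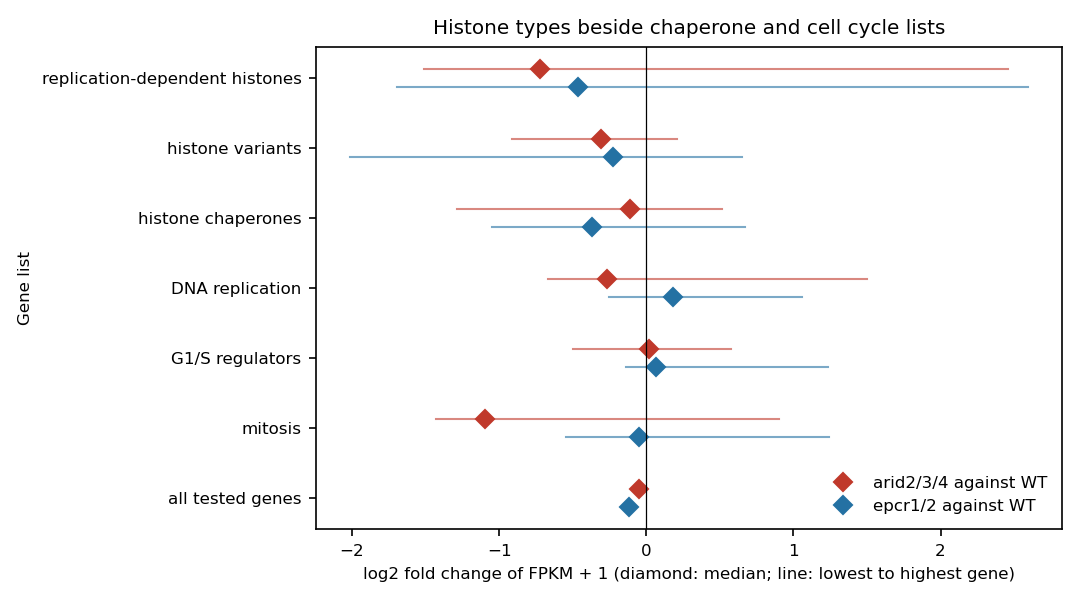
Median log2 fold change (diamonds) and range from lowest to highest gene (lines) of the 2 histone types and of 4 gene lists in arid2/3/4 and epcr1/2 against WT, with the median over all 21168 tested genes at the bottom. The median of the mitosis list is -1.09 in arid2/3/4 and -0.05 in epcr1/2, and that of the replication-dependent histones is below 0 in both.

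Tissue markers also moved with genotype. Beside their counts, 12.0% of all tested genes were called lower in arid2/3/4 and 17.8% in epcr1/2. The shares called higher were 8.78% (19.4% with the block) and 10.8%. Of 5 root markers, 5 fell in both mutants, with a summed level of 13.1 to 18.2 FPKM in arid2/3/4, 5.15 to 10.6 FPKM in epcr1/2 and 53.7 to 86.9 FPKM in WT; CASP1 of the endodermis had log2 fold changes of -2.13 and -2.86. Of 3 leaf markers, 2 fell in both (CAB2 and CAB3), with summed levels of 7351 to 15133 FPKM, 4501 to 16518 FPKM and 21089 to 27830 FPKM in arid2/3/4, epcr1/2 and WT. Of 4 shoot meristem markers, 1 rose in arid2/3/4 (3 with the block) and 3 in epcr1/2, led by STM (1.04 and 2.93), with summed levels of 22.5 to 42.0 FPKM, 66.0 to 84.5 FPKM and 13.9 to 19.5 FPKM in arid2/3/4, epcr1/2 and WT. With libraries 1 and 2 averaged, 4 of 5 root, 0 of 2 leaf and 0 of 1 meristem calls passed in arid2/3/4. In epcr1/2 the root, leaf and meristem calls all passed there. The part of these tissues in the histone levels was not tested.

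The fold changes were also set out by upstream element. The 10 genes with the octamer, among them HTA10, HTR2 and HTR9 shown above, had a median log2 fold change of -0.66 in arid2/3/4 and -0.43 in epcr1/2, and none passed without the block (limma), while 7 and 5 of 10 were called lower with it. The 36 tested genes without the octamer had medians of -0.51 and -0.39. Without the block 3 of them rose and 6 fell in arid2/3/4, and 5 rose and 7 fell in epcr1/2. Over all tested genes 20.8% and 28.5% were called without the block. With the block 20 and 17 of the 36 were called lower, against 25.7% and 31.9% of all tested genes. The 6 tested genes with CCACGTCA, among them HTB5 and HTR9, had medians of -0.78 and -0.75. Of these genes 4 were H2B genes, so element and class cannot be told apart. Without the block 1 and 3 of the 6 were called lower, and with it 5 of 6 in each mutant. The 40 without CCACGTCA had medians of -0.51 and -0.38, with 22 and 17 called lower with the block. Without the block 3 of the 40 rose and 5 fell in arid2/3/4, and 5 rose and 4 fell in epcr1/2. Neither difference was tested. Windows with the related letters ACACGTCA counted as without CCACGTCA. Among them were those of HTB1, HTB9 and HTR3, called lower in a mutant, and of HTB6 and HTB10, called higher in a mutant.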

How the data were processed

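Messenger RNA of 3 genotypes was sequenced in 3 libraries each, from RNA of 1 g of seedlings. The submitters' processing notes name STAR 2.5.2b, Cuffdiff and TAIR10, with no roles. The authors deposited 1 table of FPKM values (fragments per kilobase of transcript and per unit of library depth), as read here from its decimals, its unequal column sums and the listed Cuffdiff, since its header gives no unit. All 278 organelle genes were listed at 0. No counts were used, so no counting interval is given, and depths are rough estimates.

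The test covered the 21168 genes that reached 0.5 FPKM in 3 or more of the 9 libraries. It used limma 3.58.1 in R 4.3.3 on log2(FPKM + 1), which understates the folds of low genes, with 1 mean per genotype and empirical Bayes with a trend; the script was tested on simulated data. Benjamini-Hochberg adjustment ran across every tested gene, and called means an adjusted p under 0.05. Sums and shares of FPKM are descriptions. Separate cultures are not mentioned in the labels; p-values thus cover sample-to-sample spread that may be technical only.

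The genotypes share replicate numbers. Deviations from genotype means correlated by 0.635 to 0.835 in all 9 same-number pairs, which met the limit set for pairing. They also correlated by 0.66 to 0.765 between libraries 1 and 2 of different genotypes, and by -0.817 to -0.682 between library 3 and the others, so this is a shift of library 3 more than a match of single numbers. The fit with the replicate block is given beside the results it changed.

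The members and lists were chosen with earlier results of these data known. Library values are printed for members that passed in either fit and for the most abundant of each subclass; as these were over 30, those with the largest folds in each class were taken, and from each list up to 4 that passed. HTB4, HTB8, HTR11, HTA5 and the further genes of a class were added after their values were seen. Alternatives were other pseudocounts, filters, scalings, weights and batch terms, and leaving out or averaging libraries. Gene positions and upstream sequences are from TAIR10.1 with RefSeq's annotation (48 of 48 matched), since the table holds no coordinates.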

Additional observations from a re-analysis of the deposited data

Results flagged for a closer look

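The 2 mutants' differences from WT themselves differed for 3 histone genes, by limma's test of arid2/3/4 against epcr1/2. HTB6, an H2B gene, was lower in arid2/3/4 than in epcr1/2 (log2 difference of -1.03 ± 0.17, ± SE, adjusted p = 0.01), with log2 fold changes from WT of 0.15 in arid2/3/4 and 1.19 in epcr1/2. HTR6, an unassigned H3 gene, was lower in arid2/3/4 than in epcr1/2 (-1.23 ± 0.21, adjusted p = 0.0103), with 0.58 and 1.81 from WT. H1.3, a linker histone, was higher in arid2/3/4 than in epcr1/2 (1.53 ± 0.28, adjusted p = 0.0125), with 2.81 and 1.28 from WT. For each gene the libraries of the 2 mutants did not overlap, and each call was lost when libraries 1 and 2 were averaged as 1 sample.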

How the results depend on the processing

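Counts of called histone genes of 46, all by limma, moved most with how library 3 was handled, and the share of all tested genes called moved with them. In arid2/3/4 against WT the 9 calls became 32 with the replicate block, 32 with a batch term (50.1% of all tested genes), 37 with libraries 1 and 2 only (64.6%), 33 with array weights (65.8%) and 14 with quantile normalization, and ranged from 4 to 10 when 1 library was left out (4 without library 1 and 5 without library 2 of either arid2/3/4 or WT), while the share of all tested genes ran from 10.2% to 33.4% (10.4% and 10.2% without arid2/3/4 library 1 or 2, 11.2% and 11.7% without WT library 1 or 2). In epcr1/2 against WT the 12 calls became 29 with the block, 32 with a batch term (55.2%), 33 with libraries 1 and 2 only (65.0%) and 36 with array weights (69.2%), and ranged from 8 to 17 with 1 library left out (8 without epcr1/2 library 1, with 17.6% of all tested genes; range 17.5% to 35.8%). Between the mutants the 3 calls became 12 with the block, 15 with a batch term (34.7%), 20 with libraries 1 and 2 only (53.8%), 23 with array weights (59.1%) and 0 with libraries 1 and 2 averaged, and ranged from 2 to 4 with 1 library left out (3.94% to 15.5%). With that averaging, 9 and 11 were called in arid2/3/4 and epcr1/2 (9.50% and 22.8%). Fitting only arid2/3/4 and WT gave 6 calls of 46, with 15.5% of all tested genes called. With 1 library of the HTA4 comparison left out, its log2 fold change ran from -0.585 to 1.619 in arid2/3/4 against WT, turning round without arid2/3/4 library 3 (-0.585) and WT library 1 (-0.094), and from -0.163 (without arid2/3/4 library 3) to 1.961 against epcr1/2. Median centring moved the median of all tested genes in epcr1/2 against WT from -0.12 to 0.06. Why counts moved was not tested. Libraries 1 and 2 may share plants, in which case n = 3 overstates the independent samples.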
